A study of Mus musculus with 4 samples.

Results

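The RNA of 10 genes of the cell cycle engine was compared between acutely and chronically stimulated group 2 innate lymphoid cells (ILC2s) of the airway. They are 7 cyclins (*Ccnd2*, *Ccnd3*, *Ccne1*, *Ccne2*, *Ccna2*, *Ccnb1* and *Ccnb2*) and 3 of the cyclin-dependent kinases (CDKs) that these cyclins switch on (*Cdk1*, *Cdk4* and *Cdk6*). They were taken by gene symbol and not by a cut on their levels, but with earlier results of these data known. They make up 10 of the 24537 genes listed for each library. All 10 passed the minimum of 2 RPKM on average over the libraries and are among the 9523 genes tested. RPKM is the number of reads scaled to the exon length in kilobases and to the mapped reads of the library.

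ILC2s are lymphocytes without an antigen receptor that release type 2 cytokines when epithelial alarmins such as IL-33 reach them. The 4 libraries come from ILC2s of the bronchoalveolar lavage (BAL) fluid of C57BL/6 GATIR mice, 8 to 16 weeks old, in which an IRES-YFP cassette in the 3′ untranslated region of *Gata3* reports the transcription of that gene. The IL-33 group (2 libraries) received 3 intranasal doses of 0.5 µg IL-33. The chronic HDM group (2 libraries) received 25 µg of house dust mite extract 3 times a week for 5 weeks. Cells of both groups were taken 1 day after the final challenge and sorted as Lineage-Sca-1+YFP+. The labels give the IL-33 mice as Gata3-YFP/YFP and call their cells CD25High, and give the HDM mice as Gata3-YFP/WT and call their cells CD25Low. The methods, in contrast, mention no gate on CD25 for this sort and restrict the GATIR mice to homozygous ones. Stimulus, duration, labelled genotype and labelled CD25 level therefore differ together between the groups and cannot be told apart. The design text calls the libraries biological replicates, but the number of mice in each is not stated, so p-values measure the spread between these libraries only. Untreated ILC2s were not analysed here.

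Cyclins have no enzymatic activity of their own; each binds a CDK and makes it active. D type cyclins with Cdk4 or Cdk6 act in G1, where growth signals set their level, and phosphorylate the retinoblastoma family so that E2F factors are released. E type cyclins then start DNA synthesis, cyclin A2 acts through S and G2 phase, and B type cyclins with Cdk1 drive mitosis. The transcripts of the late cyclins are made mostly in cells that have left G1, whereas those of D type cyclins are also found in resting lymphocytes that have received a growth signal.

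The libraries held between 10696041 and 16092268 reads in genes. Genes with a read numbered 12895 to 13102 after IL-33, compared with 10675 to 12134 after chronic HDM, and 45S ribosomal RNA (*Rn45s*) took 3.45% to 4.95% of the reads against 17.4% to 25.4%. The 2 chronic HDM libraries differed more from each other than the 2 IL-33 libraries did, with a within-group SD of 0.801 against 0.308 on the log2 scale. Of 12 ILC2 markers, 12 reached a mean of 1 RPKM in both groups. They summed to 3133 to 3153 RPKM after IL-33 and to 2174 to 2717 RPKM after chronic HDM. Of 6 T cell markers, 3 reached that mean in both groups, with sums of 127 to 158 RPKM after IL-33 and 194 to 210 RPKM in the chronic HDM libraries, while *Cd4* and *Cd8a* were at 0 in every library. Of 5 B cell markers, 1 reached it, with sums of 27.4 to 38.4 against 6.80 to 8.74 RPKM, and *Ms4a1* and *Pax5* were at 0 throughout. Neutrophil markers (4 genes) summed to 0.395 to 0.566 against 9.17 to 14.1 RPKM, and epithelial markers (4 genes) to 5.16 to 13.9 against 21.5 to 73.6 RPKM. Dendritic cell markers (5 genes, 9.41 to 10.02 against 6.93 to 10.5 RPKM) overlapped between the groups, and eosinophil markers (4 genes) summed to 2.22 to 2.96 against 3.09 to 7.46 RPKM. The 7 macrophage markers summed to between 283 and 1242 RPKM after IL-33 and to between 3092 and 8496 RPKM after chronic HDM, although CD11b and CD11c were among the lineage antibodies. The macrophage sum lay below the ILC2 sum in both IL-33 libraries and above it in both chronic HDM libraries. The 4 basophil and mast cell markers summed to between 43.1 and 52.2 RPKM after IL-33 and to between 0 and 2.87 RPKM after chronic HDM. *Il2ra*, which encodes CD25, stood at 432 and 376 RPKM after IL-33 and at 27.6 and 22.0 RPKM after chronic HDM, the order that the CD25 labels give. *Gata3*, the gene that carries the reporter, went the other way, with 14.9 and 18.9 RPKM in the IL-33 libraries and 216 and 195 RPKM in the chronic HDM libraries (12.2-fold higher after chronic HDM, adjusted p = 0.00665 by limma). With RPKM rescaled without 45S ribosomal RNA, the log2 fold changes of the 10 cyclins and CDKs ran from 0.20 (*Ccnd3*) to 6.52 (*Ccnb2*), all with IL-33 higher, and 3 were called. How far other cells move these values was not tested, and in these bulk samples fewer cycling cells and less RNA per cell cannot be told apart.

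All 10 genes had higher RPKM in both IL-33 libraries than in either chronic HDM library. Among all tested genes, 41.7% were separated in that direction and 23.5% in the other, so separation alone is common here. Limma on log2(RPKM + 1) called 4 of the 10 higher after IL-33 (*Ccnd2*, *Ccna2*, *Ccnb1* and *Ccnb2*) and 0 higher after chronic HDM, where a call needs a log2 fold change over 1 together with an adjusted p under 0.01. The background for these calls is 2.80% of all tested genes higher after IL-33 and 0.536% higher after chronic HDM. Over all genes, 267 were called higher after IL-33 and 51 higher after chronic HDM, a split that became 82 and 40 with median-of-ratios scaling, 148 and 119 with quantile normalization and 55 and 29 without 45S ribosomal RNA. At an unadjusted p under 0.05, 9 of the 10 were higher after IL-33 and 0 after chronic HDM, beside 25.5% and 11.2% of all tested genes. At an adjusted p under 0.05, 8 of the 10 passed, all but *Ccnd3* and *Ccne1*, against 13.8% of all tested genes in that direction. The median log2 fold change of the 10 was 2.997, with 0.28 as the median of all tested genes, which those scalings moved by -0.24, -0.29 and -0.26. The 4 calls were lost with 0.1 in place of 1 as the added constant, with no minimum RPKM, without the intensity trend in limma, with limma-voom on recovered reads, and without IL-33 replicate 1 or IL-33 replicate 2. The adjusted p of *Ccnd2*, *Ccnb1* and *Ccnb2* reached at most 0.324 under any alternative, in each case without an IL-33 library. The direction of each of the 10 was the same in all of these.

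**Figure D1:**
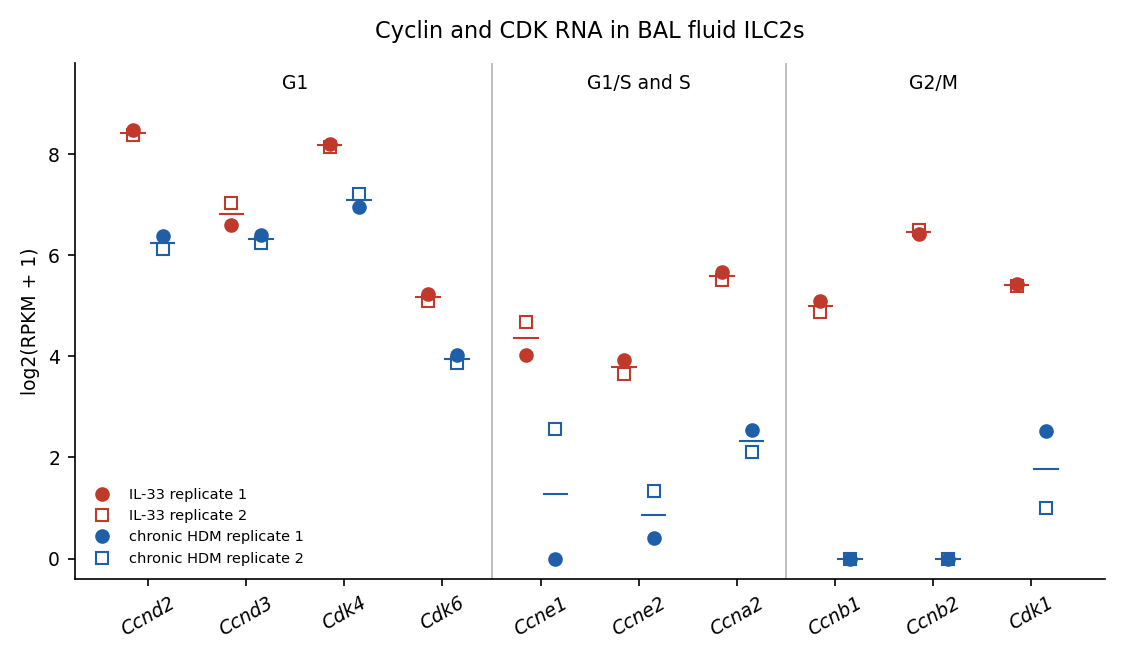
Level of each cyclin and CDK in each library as log2(RPKM + 1), with genes grouped by the phase in which the protein acts. Circles and squares are replicates 1 and 2, red is IL-33, blue is chronic HDM, and short lines are group means. The red points lie above the blue ones for all 10 genes, and *Ccnb1* and *Ccnb2* lie at 0 in both chronic HDM libraries.

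By the median, the difference between the groups was smallest for the 4 G1 genes and largest for the 3 G2/M genes. The log2 fold changes spanned 0.49 to 2.18 in G1 (median 1.15, 1 of 4 called), 2.92 to 3.26 in G1/S and S (median 3.07, 1 of 3 called) and 3.65 to 6.46 in G2/M (median 4.99, 2 of 3 called). In this fit the ranges of the 3 phases did not overlap. With 0.1 added in place of 1, *Ccne1* (4.79) exceeded *Cdk1* (4.18), with limma-voom it did so again (6.14 against 4.11), and without chronic HDM replicate 2 all 3 genes of G1/S and S (3.04 to 4.36) exceeded *Cdk1* (2.88), so that the ranges of S and G2/M overlapped. Without chronic HDM replicate 1, *Ccne1* (1.79) lay below *Ccnd2* (2.31), so that the ranges of G1 and of G1/S and S overlapped as well. No test was made over these small lists, and the intervals of single genes overlap across phases. The log2 fold changes of *Ccnb1* and *Ccnb2* rest on values of 0 after chronic HDM and so depend on the added constant.

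**Figure D2:**
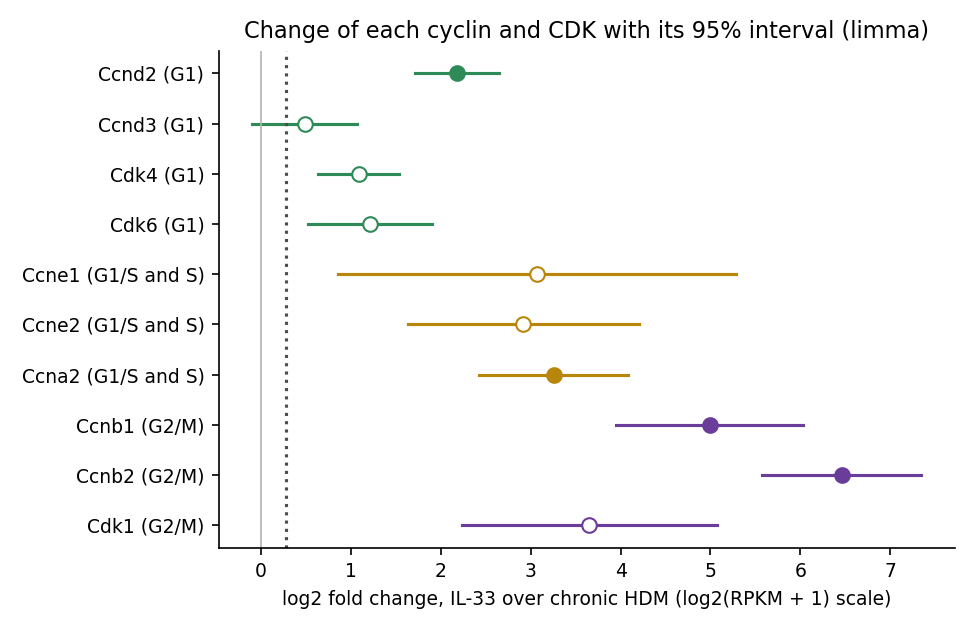
Log2 fold change of each gene (IL-33 over chronic HDM, from log2(RPKM + 1)) with the 95% interval from limma. Colours mark the phase, filled points are called genes, and the dotted line is the median of all tested genes at 0.28. The points move to the right from G1 to G2/M, and the interval of *Ccnd3* is the only one that includes 0.

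Cyclin D2, the D type cyclin that cytokine and antigen receptor signals induce in lymphocytes, was the most abundant of the 10 transcripts after IL-33. *Ccnd2* (chr6:127125709-127151048, minus strand, mm10) had 357 and 330 RPKM in IL-33 replicates 1 and 2, and 82.2 and 68.4 RPKM in chronic HDM replicates 1 and 2. The libraries of a group lay close together and the groups were far apart. The means were 344 ± 18.8 and 75.3 ± 9.77 RPKM (SD, n = 2), which is 4.56-fold. *Ccnd2* was higher after IL-33 by a log2 fold change of 2.18 (SE 0.19, 95% interval 1.71 to 2.65, adjusted p = 0.00687 by limma). Reads were many even in the lower group, with 9108 and 7251 in the chronic HDM libraries.

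Cyclin D3, the D type cyclin that developing lymphocytes depend on, had the smallest difference of the 10. *Ccnd3* (chr17:47593467-47599688, plus strand) had 96.0 and 129.8 RPKM after IL-33, against 84.0 and 74.7 RPKM after chronic HDM. The 2 IL-33 libraries differed from each other by more than the lower of them differed from the chronic HDM libraries. The fold of the means was 1.42 and the log2 fold change 0.49 (SE 0.23, 95% interval -0.09 to 1.07, adjusted p = 0.191 by limma), which did not pass. This log2 fold change was -0.05 after quantile normalization, the one alternative that turned a direction among the 10. Of the 51-base windows of its transcript, 23.1% also occur in other genes, mainly *Bysl* (36.9 and 36.8 RPKM after IL-33, 23.5 and 15.8 RPKM after chronic HDM), and reads from those windows cannot be told apart.

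The proportion of the D type cyclins did not overlap between the groups. The linear ratio of *Ccnd2* to *Ccnd3* was 3.72 and 2.55 in the IL-33 libraries and 0.978 and 0.915 in the chronic HDM libraries. After IL-33, D2 exceeded D3 in both libraries, and after chronic HDM the ranges of both transcripts overlapped. On the log2 scale with 1 added, the ratio was higher by 1.69 after IL-33, with an exact permutation p of 0.33 (two-sided), the smallest p that 2 against 2 libraries can give. The third D type cyclin, *Ccnd1*, was near absent with 0.383 and 0.135 RPKM after IL-33, compared with 0 and 0.588 RPKM after chronic HDM.

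The G1 kinases had 2.12-fold (*Cdk4*) and 2.41-fold (*Cdk6*) higher means after IL-33 and did not pass the threshold of a call. *Cdk4* (chr10:127063603-127067282, plus strand) had 293.7 and 283.1 RPKM after IL-33, against 123.3 and 148.4 RPKM after chronic HDM. The log2 fold change was 1.09 (SE 0.18, 95% interval 0.64 to 1.54, adjusted p = 0.0166 by limma). *Cdk6* (chr5:3343893-3531005, plus strand) had 36.8 and 33.2 RPKM after IL-33, compared with 15.4 and 13.6 RPKM after chronic HDM. Its log2 fold change was 1.22 (SE 0.27, 95% interval 0.53 to 1.90, adjusted p = 0.0351 by limma). Both kinases remained well expressed after chronic HDM, and *Cdk4* was then the most abundant of the 10 transcripts.

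The balance between the 2 kinases overlapped between the groups. The linear ratio of *Cdk6* to *Cdk4* was 0.125 and 0.117 after IL-33, against 0.125 and 0.0918 after chronic HDM. The difference of 0.13 on the log2 scale gave an exact permutation p of 1. After quantile normalization the groups separated, with a difference of 0.37 (exact permutation p = 0.33, the smallest possible). *Cdk4* RNA thus exceeded *Cdk6* RNA in each of the 4 libraries by a similar factor.

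E type cyclins, which pair with Cdk2 to begin DNA synthesis, were among the least abundant of the 10 in both groups. *Ccne1* (chr7:38097984-38107490, minus strand) had 15.3 and 24.7 RPKM after IL-33, from 390 and 563 reads. It was listed at 0 in chronic HDM replicate 1 and had 4.93 RPKM, from 176 reads, in chronic HDM replicate 2. The chronic HDM libraries thus disagreed beyond counting error. The log2 fold change of 3.07 had the widest interval of the 10 (SE 0.89, 95% interval 0.86 to 5.29) and did not pass (adjusted p = 0.0643 by limma).

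*Ccne2* (chr4:11191709-11204779, plus strand) had 14.2 and 11.6 RPKM after IL-33, compared with 0.328 and 1.52 RPKM after chronic HDM. The reads behind the chronic HDM values numbered 19 and 84. Its means of 12.9 ± 1.84 and 0.923 ± 0.841 RPKM (SD, n = 2) differ 14.0-fold, and its log2 fold change was 2.92 (SE 0.52, 95% interval 1.63 to 4.21, adjusted p = 0.0194 by limma), short of a call. Over 17.4% of its 51-base windows it overlaps *Ints8* on the opposite strand. *Ints8* itself had 4.69 and 3.33 RPKM after IL-33, against 15.5 and 7.14 RPKM after chronic HDM. The 2 E type cyclins showed no common change of proportion: the log2 ratio of *Ccne1* to *Ccne2* was 0.10 and 1.03 after IL-33, compared with -0.41 and 1.24 after chronic HDM (exact permutation p = 1).

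Cyclin A2, the partner of Cdk2 in S phase and of Cdk1 later, was called higher after IL-33. *Ccna2* (chr3:36564865-36571996, minus strand) had 49.6 and 44.7 RPKM after IL-33, compared with 4.85 and 3.32 RPKM after chronic HDM, from 261 and 171 reads in the latter. The lower IL-33 library was thus far above the higher chronic HDM library. The means were 47.1 ± 3.48 and 4.08 ± 1.08 RPKM (SD, n = 2), an 11.5-fold difference, and the log2 fold change was 3.26 (SE 0.33, 95% interval 2.43 to 4.09, adjusted p = 0.00718 by limma). Its call was also lost with median-of-ratios scaling (adjusted p = 0.0104 by limma) and without 45S ribosomal RNA (adjusted p = 0.0113 by limma), within a range of 0.000151 to 0.324 over all alternatives.

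The remaining level of *Ccna2* after chronic HDM needs care, because 15.9% of its 51-base windows are shared with *Exosc9*, a subunit of the RNA exosome encoded on the opposite strand. *Exosc9* had 63.9 and 58.8 RPKM after IL-33, against 46.7 and 37.3 RPKM after chronic HDM. Were the reads of *Exosc9* spread evenly along its transcript, the 513 shared bases would alone give *Ccna2* 11.7 and 10.8 RPKM after IL-33, compared with 8.56 and 6.83 RPKM after chronic HDM. That is below the measured *Ccna2* level in the IL-33 libraries and above it in both chronic HDM libraries. The Smart-seq2 kit does not mark strand, so reads of the pair cannot be told apart there, and whether the reads left after chronic HDM are those of *Ccna2* was not tested. The same calculation for *Ccne2* and *Ints8* gives 2.89 and 1.34 RPKM after chronic HDM, above the measured value in replicate 1 and below it in replicate 2. These overlapping neighbours were looked up after the values had been seen.

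The B type cyclins, which drive entry into mitosis with Cdk1, showed the clearest contrast. *Ccnb1* (chr13:100778739-100786486, minus strand) had 33.4 and 28.4 RPKM after IL-33, from 1007 and 768 reads, and no read in either chronic HDM library. Against a floor of 3 reads per library (0.0677 and 0.0708 RPKM), it was at least 446-fold higher after IL-33. *Ccnb2* (chr9:70407689-70421554, minus strand) had 84.4 and 89.8 RPKM after IL-33, from 1692 and 1613 reads, and again no read after chronic HDM. It was at least 835-fold higher after IL-33 against the same floor (0.102 and 0.107 RPKM). Both were called higher after IL-33 by limma, with fitted log2 fold changes of 4.99 for *Ccnb1* (SE 0.42, adjusted p = 0.00687) and 6.46 for *Ccnb2* (SE 0.35, adjusted p = 0.00497). Only 0.0210% of tested genes had a larger fitted log2 fold change than *Ccnb2*. Floors cover counting error only.

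The 2 B type transcripts were not equally abundant. In the IL-33 libraries the linear ratio of *Ccnb1* to *Ccnb2* was 0.395 and 0.316. No ratio can be given after chronic HDM, where both are at 0. Of the windows of the *Ccnb1* transcript, 42.7% also occur in 5 other annotated genes, among them *Ccnb1-ps*, and reads from those windows cannot be assigned to 1 gene. *Ccnb2* shares no window with another gene.

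*Cdk1*, the kinase of mitosis, lay between these patterns. *Cdk1* (chr10:69336635-69352912, minus strand) had 42.4 and 40.9 RPKM after IL-33, against 4.78 and 0.992 RPKM after chronic HDM, from 262 and 52 reads in the latter. The IL-33 libraries nearly coincided, while those of chronic HDM differed several fold. The fold of the means was 14.4 and the log2 fold change 3.65 (SE 0.57, 95% interval 2.23 to 5.07, adjusted p = 0.0143 by limma), short of a call. *Cdk1* shares no window with another gene. The linear ratio of *Cdk1* to *Cdk4* was 0.144 in both IL-33 libraries and 0.0388 and 0.00669 in the chronic HDM libraries, a difference of 2.56 on the log2 scale with 1 added (exact permutation p = 0.33, the smallest possible).

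In proportion to *Cdk1*, the B type cyclins were lower after chronic HDM as well. The ratio of *Ccnb2* to *Cdk1* was 1.99 and 2.19 after IL-33, and at most 0.0213 and 0.107 after chronic HDM when *Ccnb2* is set to its floor. The ratio of *Ccnb1* to *Cdk1* was 0.788 and 0.694 after IL-33, and at most 0.0142 and 0.0713 after chronic HDM. Within a chronic HDM library, *Cdk1* was therefore detected where neither B type cyclin had a read. On the log2 scale with 1 added, the ratio of *Ccnb1* to *Cdk1* was higher by 1.34 after IL-33 (exact permutation p = 0.33). With *Ccnb1* at 0 after chronic HDM this size is set by the added constant and by *Cdk1*: it was 0.76 with 2 added, 4.09 with 0.1 added, 0.57 without chronic HDM replicate 1 and 2.11 without chronic HDM replicate 2. *Mki67*, a marker of cells outside resting phase, had 28.6 and 31.0 RPKM after IL-33, compared with 0 and 0.751 RPKM after chronic HDM (adjusted p = 0.00718 by limma).

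Transcripts were more often missing from chronic HDM libraries in general. Of genes with 1 to 5 RPKM in the other library of their group, the range in which *Ccne1* lies after chronic HDM, 3.26% and 3.58% were at 0 in IL-33 replicates 1 and 2, and 26.5% and 7.71% in chronic HDM replicates 1 and 2. For genes with 5 to 20 RPKM in the other library, these shares were 0.0296% and 0.0894% after IL-33, against 5.44% and 2.64% after chronic HDM. For genes with 20 to 100 RPKM in the other library, they were 0% in both IL-33 libraries and 0.552% and 0.0680% in chronic HDM replicates 1 and 2. Zeros in both libraries were counted at another cut, set in the other group. Of 3680 genes with at least 20 RPKM in both IL-33 libraries, 68 had no read in 1 or both chronic HDM libraries. No read in both was found for 22 (0.598%) of the 3680, and *Ccnb1* and *Ccnb2* are among them. Conversely, of 2864 genes with at least 20 RPKM in both chronic HDM libraries, 0 lacked reads in both IL-33 libraries. Of 72 listed genes for RNA polymerase II, eIF3, proteasome and SF3 subunits, 68 had at least 5 RPKM in both IL-33 libraries, and 0 of these 68 were below 1 RPKM in any library. The part of such dropout in the zeros of the B type cyclins was not tested.

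Promoter windows were compared because the 3 G2/M genes had the largest log2 fold changes of the 10. Promoters of such genes are known to carry CCAAT boxes, bound by NF-Y, and cell cycle homology regions (CHR), bound by the MuvB complex, and those of S phase genes carry E2F sites. RefSeq windows (GRCm38.p6, the mm10 assembly), from 250 bases before to 50 bases after the start, were used for 7 of the 10 genes, and not for *Ccnd2*, *Ccne2* and *Ccna2*, so *Ccne1* is the only gene of G1/S and S among them. On either strand, the searched letters were TTTGAA or TTCGAA for CHR, CCAAT for the CCAAT box, and TTTCCCGC, TTTCGCGC, TTTGCCGC or TTTGGCGC for E2F. The part from 220 bases before to 20 bases after the start is shown for the 3 G2/M genes and, as a G1 gene for contrast, for *Ccnd3*, 5′ to 3′ on the strand of the gene, with the motif letters in capitals. *Ccnb1* is from chr13:100786467-100786706 (minus strand), *Ccnb2* from chr9:70421535-70421774 (minus strand), *Cdk1* from chr10:69352893-69353132 (minus strand) and *Ccnd3* from chr17:47593247-47593486 (plus strand).
Ccnb1: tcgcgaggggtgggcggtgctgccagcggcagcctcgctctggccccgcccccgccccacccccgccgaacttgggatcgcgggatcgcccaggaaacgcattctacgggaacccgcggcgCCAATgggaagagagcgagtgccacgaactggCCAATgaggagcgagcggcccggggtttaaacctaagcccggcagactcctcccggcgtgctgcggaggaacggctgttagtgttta
Ccnb2: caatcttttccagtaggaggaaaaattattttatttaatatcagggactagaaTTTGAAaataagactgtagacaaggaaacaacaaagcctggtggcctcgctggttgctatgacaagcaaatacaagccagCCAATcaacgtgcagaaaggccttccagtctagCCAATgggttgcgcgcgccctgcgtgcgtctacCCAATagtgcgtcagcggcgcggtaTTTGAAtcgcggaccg
Cdk1: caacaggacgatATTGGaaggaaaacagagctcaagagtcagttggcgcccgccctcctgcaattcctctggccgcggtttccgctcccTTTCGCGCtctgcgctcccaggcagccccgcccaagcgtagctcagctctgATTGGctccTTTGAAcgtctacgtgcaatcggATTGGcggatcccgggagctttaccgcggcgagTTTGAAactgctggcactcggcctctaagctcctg
Ccnd3: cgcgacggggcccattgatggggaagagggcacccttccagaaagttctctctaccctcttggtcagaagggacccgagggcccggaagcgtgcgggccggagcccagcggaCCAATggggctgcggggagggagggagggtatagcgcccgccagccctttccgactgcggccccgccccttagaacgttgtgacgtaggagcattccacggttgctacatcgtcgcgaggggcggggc

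The 3 G2/M windows each held 2 or 3 CCAAT boxes, with at least 1 pair 32 or 33 bases apart. In *Ccnb1* they began at -99 and -67, counted from the start site, 32 bases apart. In *Ccnb2* they began at -87, -54 and -21, each 33 bases from the next. In *Cdk1* they lie on the other strand (ATTGG as printed) at -208, -80 and -48, the last pair 32 bases apart. A pair on the same strand 32 or 33 bases apart was in 0.487% of the 32851 windows of the table, 2 or more CCAAT boxes were in 11.7% and 1 or more in 37.4%. The spacing was looked at after the windows had been read, so its rarity is a description of these genes. Among the other 4 windows, *Ccnd3* had 1 CCAAT box at -108, and *Cdk4*, *Cdk6* and *Ccne1* had none.

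CHR letters were found in *Ccnb2*, at -167 and 5, and in *Cdk1*, at -71 and -15, and not in the other 5 windows, with 19.2% of all windows holding them. E2F letters were found only in *Cdk1*, at -131, with 2.26% of all windows holding them. A match of letters is not a bound site, and binding was not measured here. Other forms of these motifs were not searched, so a window without the letters is not shown to lack a site.

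**Figure D3:**
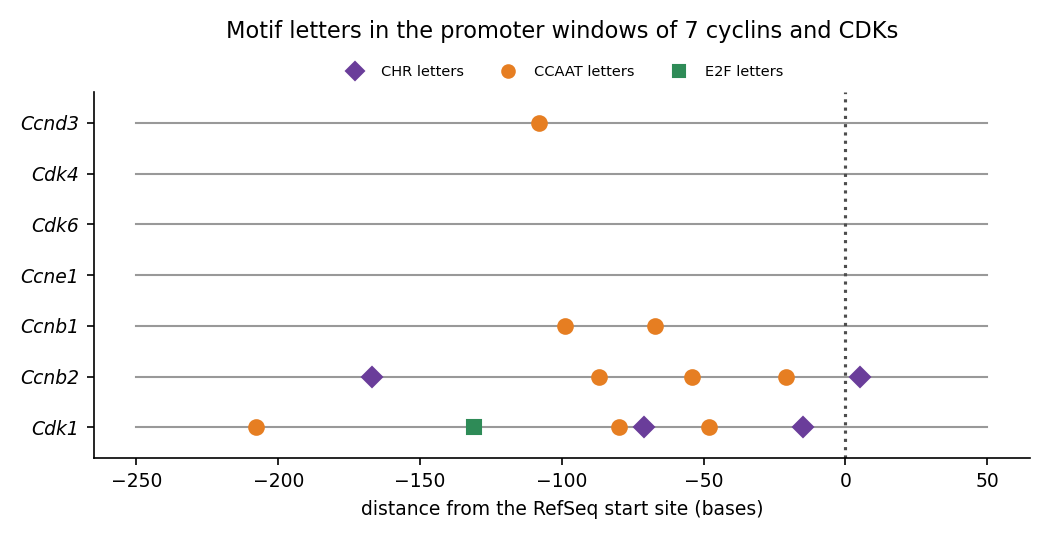
Positions of the searched motif letters in the promoter windows of 7 cyclins and CDKs, as distance in bases from the RefSeq start site (dotted line). Diamonds are CHR letters, circles CCAAT letters and squares E2F letters. The windows of *Ccnb1*, *Ccnb2* and *Cdk1* hold 2 or 3 CCAAT boxes each, and those of *Cdk4*, *Cdk6* and *Ccne1* hold no searched letters.

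As a whole, the cyclin RNA was both more abundant and of other composition after IL-33. The 7 cyclins summed to 650 and 659 RPKM after IL-33 and to 171 and 153 RPKM after chronic HDM. D type cyclins made up 69.7% and 69.8% of that sum after IL-33, against 97.0% and 93.6% after chronic HDM. B type cyclins made up 18.1% and 17.9% after IL-33, compared with 0% in both chronic HDM libraries. The chronic HDM pool was thus almost wholly of the G1 type.

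The A and E type shares were smaller. Cyclin A2 made up 7.63% and 6.77% after IL-33, against 2.83% and 2.17% after chronic HDM. E type cyclins made up 4.55% and 5.51% after IL-33, compared with 0.191% and 4.22% after chronic HDM, where the libraries differed because of *Ccne1*. Relative to *Ccnd2*, *Ccna2* stood at 0.139 and 0.135 after IL-33 and at 0.0590 and 0.0485 after chronic HDM (exact permutation p = 0.33). How far reads shared with *Exosc9* make up the *Ccna2* values in these shares and ratios was not tested.

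The 3 CDKs summed to 372.9 and 357.2 RPKM after IL-33 and to 143.5 and 163.0 RPKM after chronic HDM. *Cdk4* made up 78.8% and 79.3% of this sum after IL-33, against 85.9% and 91.0% after chronic HDM. *Cdk1* made up 11.4% and 11.5% after IL-33, against 3.33% and 0.609% after chronic HDM. The share of *Cdk6*, from 8.36% to 10.7% over the 4 libraries, overlapped between the groups.

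**Figure D4:**
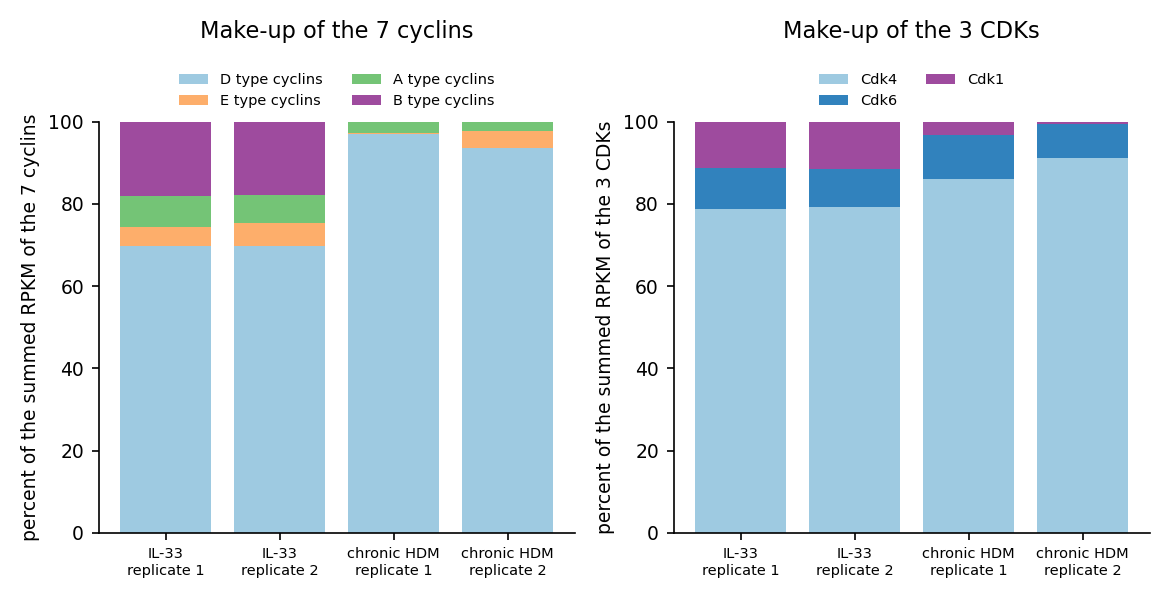
Make-up of the summed RPKM of the 7 cyclins (left) and of the 3 CDKs (right) in each library, in percent. The B type segment, 18.1% and 17.9% of the cyclins after IL-33, is absent in both chronic HDM bars, and the *Cdk1* segment is smaller in both of them.

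Ordered by level (RPKM), which is per length, the genes after IL-33 ran *Ccnd2*, *Cdk4*, *Ccnd3*, *Ccnb2*, *Ccna2*, *Cdk1*, *Cdk6*, *Ccnb1*, *Ccne1* and *Ccne2*. The ranges of neighbours were separate except for *Cdk6* and *Ccnb1*. After chronic HDM, *Cdk4* came first, followed by *Ccnd3* and *Ccnd2* with overlapping ranges and then by *Cdk6*. *Ccna2*, *Cdk1*, *Ccne1* and *Ccne2* followed, with ranges that overlapped from each to the next. *Ccnb1* and *Ccnb2* came last, at 0, although after IL-33 *Ccnb2* lay above *Ccna2*, *Cdk1* and *Cdk6*.

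Other genes of CDK control were read from a list of 78 cyclins, CDKs and regulators, of which 61 were tested. Limma called 5 of the 61 higher after IL-33 and 0 higher after chronic HDM, beside 2.80% and 0.536% of all tested genes. At an unadjusted p under 0.05 the numbers were 22 and 5 of the 61, beside 25.5% and 11.2% of all tested genes. The libraries of the groups were separated with IL-33 higher for 29 of the 61 and with chronic HDM higher for 12, beside 41.7% and 23.5% of all tested genes. The median log2 fold change was 0.65, against 0.28 for all tested genes. The list as a whole was thus much nearer the background than the 10 cyclins and CDKs were, a description without a test.

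The regulators called are partners of CDKs or part of the machinery that destroys cyclins. *Cks1b*, a small subunit that docks onto CDKs, had 153.3 and 132.4 RPKM after IL-33, against 11.8 and 13.7 RPKM after chronic HDM (log2 fold change 3.38, SE 0.24, adjusted p = 0.00665 by limma). *Cdkn3*, a phosphatase that acts on CDKs, had 20.4 and 21.5 RPKM after IL-33, compared with 0 in both chronic HDM libraries, at least 100.3-fold higher against the floor (adjusted p = 0.00687 by limma). Of the 8 tested genes for destruction of cyclins, 3 were called higher after IL-33, each with no read in both chronic HDM libraries. *Cdc20*, which activates the anaphase-promoting complex, had 89.7 and 88.3 RPKM after IL-33 (at least 988-fold, adjusted p = 0.00497 by limma). *Ube2c*, the ubiquitin-conjugating enzyme of that complex, had 69.7 and 72.1 RPKM after IL-33 (at least 410.3-fold, adjusted p = 0.00497 by limma). *Ccnf*, the cyclin-like subunit of an SCF ubiquitin ligase, had 16.3 and 19.5 RPKM after IL-33 (at least 345-fold, adjusted p = 0.00737 by limma). Like the B type cyclins, these 3 act in G2 and mitosis.

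*Cdk2*, the CDK-activating kinase, the CDC25 phosphatases and the inhibitory kinases did not reach a call. *Cdk2*, the partner of cyclins E and A, had 60.5 and 54.7 RPKM after IL-33, against 15.1 and 3.39 RPKM after chronic HDM (log2 fold change 2.80, SE 0.63, adjusted p = 0.0342 by limma). The CDK-activating kinase, which phosphorylates all cell cycle CDKs, overlapped between the groups for cyclin H and Cdk7. *Ccnh* had 26.1 and 20.5 RPKM after IL-33, compared with 29.2 and 13.0 RPKM after chronic HDM. *Cdk7* had 9.57 and 7.30 RPKM after IL-33, against 11.9 and 6.59 RPKM after chronic HDM. The remaining gene of this role, *Mnat1*, named after its values were seen, was separated with chronic HDM higher. It had 6.27 and 5.15 RPKM after IL-33, against 11.3 and 10.9 RPKM after chronic HDM (adjusted p = 0.157 by limma). Of the CDC25 phosphatases, which remove inhibitory phosphates from CDKs, *Cdc25a* overlapped (5.50 and 7.12 RPKM after IL-33, 9.45 and 0.994 RPKM after chronic HDM). *Cdc25c*, named after its values were seen, had 3.73 and 4.51 RPKM in the IL-33 libraries and no read in either chronic HDM library (adjusted p = 0.0371 by limma). *Cdc25b* had 6.95 and 8.68 RPKM after IL-33, compared with 0 and 3.86 RPKM after chronic HDM. The kinases that place those phosphates were not called either: *Pkmyt1* had 11.4 and 32.5 RPKM after IL-33, against 22.8 and 8.63 RPKM after chronic HDM, and *Wee1* had 4.53 and 4.22 RPKM after IL-33, compared with 8.16 and 4.53 RPKM after chronic HDM.

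Upstream of the cyclins, 0 of 12 tested pocket proteins and E2F factors and 0 of 6 tested MuvB genes were called by limma, with 6 and 2 of them at an unadjusted p under 0.05, all with IL-33 higher, as are 25.5% of all tested genes. *Rbl2*, which encodes the pocket protein p130 of resting cells, overlapped between the groups at 33.7 and 38.3 RPKM after IL-33, against 44.1 and 31.6 RPKM after chronic HDM. *Tfdp1*, the dimerization partner of E2F factors, had 39.5 and 46.5 RPKM after IL-33, compared with 8.79 and 14.9 RPKM after chronic HDM (log2 fold change 1.81, SE 0.35, adjusted p = 0.0233 by limma). The MuvB subunit *Lin37* had 57.4 and 55.6 RPKM after IL-33, against 18.2 and 26.4 RPKM after chronic HDM (log2 fold change 1.32, SE 0.28, adjusted p = 0.0305 by limma). The histone-binding subunit *Rbbp4* had 37.1 and 34.7 RPKM after IL-33, compared with 31.3 and 21.3 RPKM after chronic HDM, a difference that did not pass (adjusted p = 0.313 by limma). Some low genes of these roles had no read in either chronic HDM library and are named after their values were seen. *Mybl2*, the B-Myb activator that joins MuvB, had 9.82 and 7.99 RPKM after IL-33, which is at least 206-fold higher against the floor (adjusted p = 0.0132 by limma). *Foxm1*, which binds MuvB later, had 2.31 and 3.42 RPKM after IL-33 and was below the minimum for the test. *E2f8*, a repressor of the E2F family, had 3.86 and 7.62 RPKM after IL-33, at least 132-fold higher (adjusted p = 0.0306 by limma). *E2f2*, an activator of that family, had 6.49 and 10.1 RPKM after IL-33, against 0 and 0.446 RPKM in the chronic HDM libraries (adjusted p = 0.0209 by limma). *E2f6*, also named after its values were seen, went the other way. It had 1.39 and 2.32 RPKM after IL-33, against 7.46 and 3.41 RPKM after chronic HDM (adjusted p = 0.204 by limma). Of the 12 tested pocket proteins and E2F factors, 6 were separated with IL-33 higher and 1 with chronic HDM higher. Among all tested genes these shares are 41.7% and 23.5%. In all, 11 of the 78 genes had reads after IL-33 and none in either chronic HDM library. Some of them are near the floor, such as *Cdkn2a* (0.083 and 0.276 RPKM after IL-33) and *Cdk5r1* (0.037 and 0 RPKM). The same share over all genes was not computed, so this count is not a result about genes of CDK control. *Ccna1* and *Ccnb3*, cyclins expressed mainly in germ cells, were listed at 0 in all 4 libraries.

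**Figure D5:**
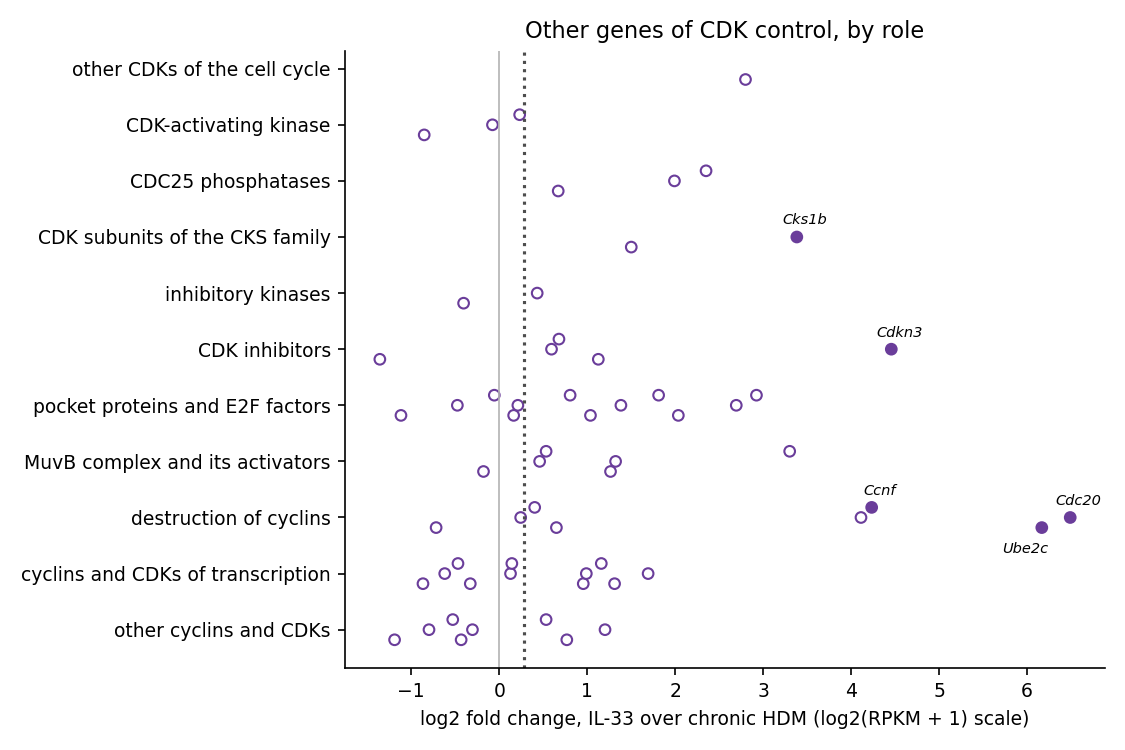
Log2 fold change (log2(RPKM + 1) scale) of the tested genes of CDK control other than the 10 cyclins and CDKs, by role. Filled points with names are the 5 called genes, open points are those not called, and the dotted line is the median of all tested genes at 0.28. Points lie on both sides of 0 in every role but *Cdk2*, the CDC25 phosphatases and the CKS family, where all lie above it.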

How the data were processed

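BAL fluid ILC2s were profiled with Smart-seq2 libraries read as single 51-bp reads. The authors used HISAT2 (2.0.4, per the submitters' processing notes) for alignment to mm10, and the RPKM per gene that they deposited came from HOMER, counted over the exons of one RefSeq transcript; no strand option is stated. Positions are those of the deposited files. The study tested counts with DESeq2, but counts were not used here.

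RPKM multiplied by exon length moves in steps of 1 read. Within 0.1 of a read, at least 99.8% of values above 0 were whole, and these recovered reads give the depth and the floor of 3 reads per library. Log2(RPKM + 1) was tested for 9523 genes, those averaging 2 RPKM or more, with limma (3.58.1 in R 4.3.3; intensity trend, two-sided, Benjamini-Hochberg adjustment over all of them). A call needed a log2 fold change over 1 together with an adjusted p under 0.01, as in the study's methods. The procedure was also run on simulated reads, drawn without added dropout, and no result given here rests on that run. Ratios of partner genes (7 in all) were compared with exact permutation tests over libraries, which cannot give a p below 0.33; after Benjamini-Hochberg adjustment none can fall below that.

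Of the 78 other genes of CDK control, those named are every called gene and, in each role with none called, the 2 with the highest mean. The 10 cyclins and CDKs, the lists and the tests were chosen with earlier results of these data known. *Exosc9*, *Ints8*, *Bysl*, *Cdkn1b*, *Cdc25c*, *Mnat1*, *Mybl2*, *Foxm1*, *E2f8*, *E2f2*, *E2f6* and the CCAAT spacing were chosen after their values were seen. Shared windows are 51-base words of the GENCODE M21 transcript nearest to the counted length. Promoter windows are those of RefSeq (GRCm38.p6). The libraries were not paired by replicate number in the fit reported. Figures were drawn with matplotlib 3.10.9.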

Additional observations from a re-analysis of the deposited data

How the results depend on the processing

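Each of the 10 cyclins and CDKs was fitted under 17 alternatives, and 169 of the 170 log2 fold changes had the direction reported; *Ccnd3* turned to -0.0527 after quantile normalization. The number of these 10 called (4), of other CDK control genes called (5) and of all genes called (318) was 0, 0 and 0 with 0.1 added in place of 1, with no minimum RPKM, without the intensity trend and with limma-voom on recovered reads. At an unadjusted p under 0.05, these 4 settings still gave 8, 9, 9 and 9 of the 10, 25, 27, 25 and 24 of the other CDK control genes, and 3277, 4013, 3327 and 3055 of all genes. With an adjusted p under 0.05 the 3 counts were 8, 18 and 1766. Of all genes, 609 were called with a minimum mean of 5 RPKM, 835 with a weight per library (8 of CDK control), 122 with median-of-ratios scaling (82 toward IL-33, 40 toward chronic HDM) and 84 rescaled without 45S ribosomal RNA (55 and 29), against 267 and 51 as reported; both rescalings called 3 of CDK control. Quantile normalization called 267 of all genes (148 and 119). Over all genes, these 3 scalings moved the median by -0.24 (median of ratios), -0.29 (quantile) and -0.26 (without 45S). Leaving out 1 library gave 0 to 9 of the 10, 0 to 23 of CDK control and 0 to 2624 of all genes: 0 of each without IL-33 replicate 1 or 2 (7 and 7 of the 10, 11 and 9 of CDK control and 1316 and 1396 of all genes at an unadjusted p under 0.05), then 8, 18 and 2394 without chronic HDM replicate 1, and 9, 23 and 2624 without chronic HDM replicate 2. The lone library is then assumed to vary like the pair of the other group. With the replicate number as a block, 8, 11 and 1254 were called. The deviations of equally numbered libraries correlated at -0.04, which with 2 libraries per group cannot show whether equal numbers share a batch. The difference in the log2 ratio of *Cdk6* to *Cdk4* ranged, with 1 library left out, from -0.0868 (without chronic HDM replicate 2) to 0.344 (without chronic HDM replicate 1) and was 0.37 after quantile normalization, and that of *Ccne1* to *Ccne2* from -0.67 (without chronic HDM replicate 1; -0.31 without IL-33 replicate 2) to 0.974 (without chronic HDM replicate 2). The cause was not tested. For genes at 0 after chronic HDM, the folds are set against the floor of 3 reads, which covers counting error and not dropout.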

Other observations

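Cyclins and CDKs that do not drive the cell cycle were not called in either direction. Of 11 tested cyclins and CDKs of transcription, which phosphorylate RNA polymerase II or act in splicing, limma called 0 (4 at an unadjusted p under 0.05, 2 in each direction, beside 25.5% of all tested genes with IL-33 higher and 11.2% with chronic HDM higher), and the median log2 fold change was 0.14. *Ccnl2*, a cyclin linked to splicing, had 47.7 and 50.3 RPKM after IL-33, compared with 124.2 and 65.4 RPKM after chronic HDM (adjusted p = 0.133 by limma). Its relative *Ccnl1* had 40.5 RPKM in both IL-33 libraries and 72.3 and 54.4 RPKM after chronic HDM (adjusted p = 0.136 by limma). In both, the chronic HDM libraries lay above the IL-33 libraries.

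Of 8 tested genes among other cyclins and CDKs, limma called 0 (at an unadjusted p under 0.05, 1 with IL-33 higher and 2 with chronic HDM higher, beside the same shares of all tested genes), and the median log2 fold change was -0.37. *Ccng1*, the p53-induced cyclin G1, had 78.3 and 68.7 RPKM after IL-33, against 30.6 and 31.98 RPKM after chronic HDM (log2 fold change 1.20, adjusted p = 0.0225 by limma). *Cdk5*, a kinase best known from neurons, overlapped between the groups, with 12.3 and 17.5 RPKM after IL-33, compared with 30.3 and 15.2 RPKM after chronic HDM.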
